A study of Drosophila melanogaster with 30 samples.

Results

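The results concern male pupae of Drosophila melanogaster that carried the fru allele pair fru-w12/fru-ChaM5, compared as whole bodies with males of the strain w; Berlin at 48 h after puparium formation. The comparison was made on 4 of the 30 arrays of the series, named replicates 5 to 8 in the labels, and the arrays were chosen by those titles and strains alone. The mutant strain is labelled w; fru-w12/fru-ChaM5, so both strains carry w, a mutation of the eye colour gene white. The array titles call the mutants fru P1, after a promoter of the gene, but the labels do not describe the lesions of the alleles and name no transgene in either strain. Total RNA came from about 30 pooled male pupae per extract, and the design text of the series calls the samples independent. Each array was a spotted 2-colour array on which mutant and w; Berlin cDNA were hybridised together. The mutant cDNA carried Cy5 on replicates 5 and 6 and Cy3 on replicates 7 and 8, a dye-swap design. Further groups used here were fru-440/fru-P14 males against Canton S males in the whole body (4 arrays), fru-w12/fru-ChaM5 males against w; Berlin males in the dissected central nervous system, or CNS (3 arrays), and Canton S females against Canton S males in the CNS (4 arrays), all at 48 h.

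The gene fruitless (fru) encodes zinc finger transcription factors, and its P1 promoter makes the male-specific FruM proteins. Sex-specific splicing of the P1 transcripts limits FruM to males, where it is found in a small share of neurons and is needed for courtship behaviour. A whole pupa at this stage also holds developing muscle, fat body, epidermis and gonads, most of whose cells do not express FruM. In such bulk samples fewer cells of a type and less RNA per cell cannot be told apart.

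A value is the normalized log2 ratio of the 2 channels of 1 array, as the authors deposited it; a value of 1 is a 2-fold and a value of 2 a 4-fold difference between mutant and w; Berlin males. The labels do not say in which strain a transcript with a positive ratio was the more abundant one, so the signs given are the deposited ones and no direction is read from them. The probe IDs, such as DAC034F02, were not paired with genes by any table used here. No gene, fru included, could therefore be followed by name, and neither the mutant genotype nor the tissue was checked against its genes.

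Of 15744 probes left after 32 control spots were set aside, 6585 had a value on all 4 arrays, 3114 on 3, 1621 on 2 and 1085 on 1, whereas 3339 had none. The 9699 probes with at least 3 values were tested, and each of them had a value in both dye orientations. Replicates 5, 6, 7 and 8 gave values for 8142, 11017, 11533 and 9317 probes. A further 72 probes had a value on both arrays with the mutant in Cy5 and on neither with it in Cy3, and 314 had the opposite pattern. These probes were not tested. How far the spots stood above background is unknown, and precision is limited by the small number of arrays.

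The arrays resembled each other most within a dye orientation. Across probes Pearson's r was 0.63 between replicates 5 and 6 (n = 7820 probes) and 0.553 between replicates 7 and 8 (n = 8850). Between arrays of opposite orientation it lay between 0.145 (replicates 5 and 8) and 0.324 (replicates 5 and 7). All 6 pairs of arrays share probes and strains, so these values describe the arrays only. The slides of replicates 5, 6 and 7 are numbered 29, 30 and 28 in the labels, which name the second scan for each, and that of replicate 8 is numbered 52 with no scan named. The spread over probes was 0.56 on replicate 5, 0.42 on replicate 6, 0.56 on replicate 7 and 0.49 on replicate 8 (SD of the log2 ratio). Replicate 6 had the narrowest spread, with 2.31% of its values beyond 2-fold, against 6.96% on replicate 5, 6.37% on replicate 7 and 4.48% on replicate 8.

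The sign of the strongest probes kept across the dye orientations. Of 43 tested probes beyond 2-fold on every array that measured them, 36 had 1 sign throughout, 9 positive and 27 negative, whereas 4 changed sign with the dye. On this basis the ratios were read as turned to 1 direction before deposit. Over all 9699 tested probes the means of the 2 orientations had a Pearson's r of 0.311 and a Spearman's rho of 0.206. The test fitted 1 effect, the mean ratio over both orientations, and 1 dye component, the gap between them, to each probe with limma (Benjamini-Hochberg adjusted p under 0.05). Because the dye component takes up the gap between orientations, that gap enters neither the standard errors nor the p-values.

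**Figure D1:**
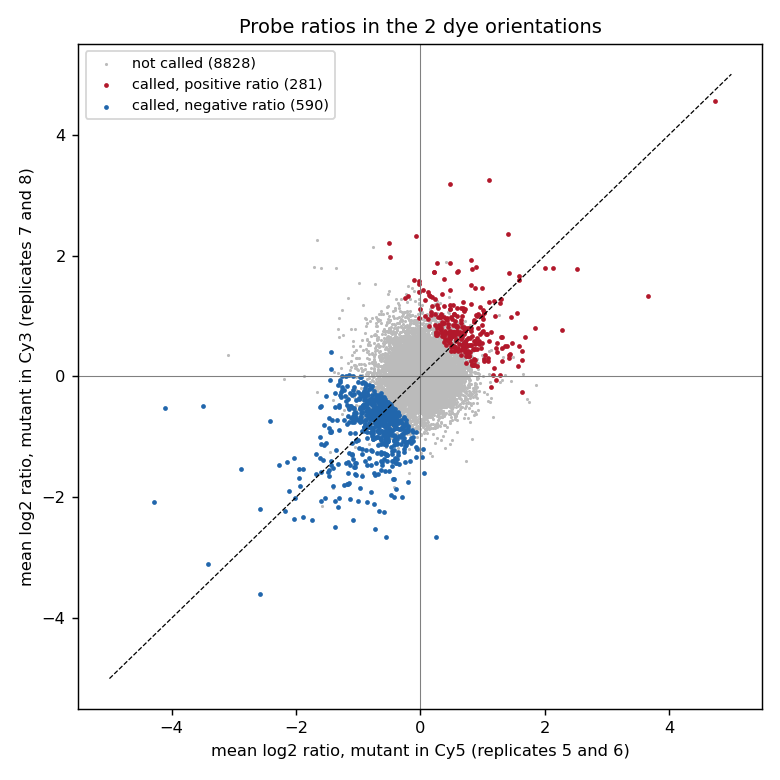
Mean log2 ratio of each of the 9699 tested probes on the 2 arrays with the mutant in Cy3 (vertical axis) against the mean on the 2 arrays with the mutant in Cy5 (horizontal axis). Red points are the 281 probes called with a positive and blue points the 590 called with a negative ratio; the dashed line marks equal values, and the called probes lie along it at both ends while the uncalled probes form a round cloud at the centre.

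Mutant and w; Berlin males differed for 871 of the 9699 probes, which is 8.98% of those tested. A positive ratio was found for 281 of them (2.9% of the probes tested) and a negative ratio for 590 (6.08%). The calls thus lay mostly on the negative side, although 55.5% of all tested probes had a positive effect and the median effect of all tested probes was 0.04. An unadjusted p under 0.05 was reached by 2592 probes. The count of 871 calls is approximate, because in simulated data the share of false calls exceeded the nominal one under some assumptions. Most differences were modest: called probes had a median size of 0.70 log2 units, or 1.63-fold, against 0.20 log2 units for all tested probes. Beyond 2-fold there were 40 positive and 119 negative calls, and beyond 4-fold 4 positive and 12 negative ones. The count depended on which array was left out: 21 probes passed without replicate 5 and 87 without replicate 6. Without replicate 7 it was 617 and without replicate 8 it was 975, and with no dye component 224 probes passed. Each fit without 1 array leaves another alone in its dye orientation, where it is fitted exactly and adds nothing to the standard error. Why the counts moved was not tested. The fits compared next reuse arrays that made the calls. Agreement in sign and p was therefore favoured by the choice, and the numbers are a description. For probes with 4 values the effect itself is the same with and without the dye component. Of the 797 calls still tested without replicate 5, 796 kept their sign with an unadjusted p under 0.05, as did all 745 without replicate 6 and 854 of 871 with no dye component.

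**Figure D2:**
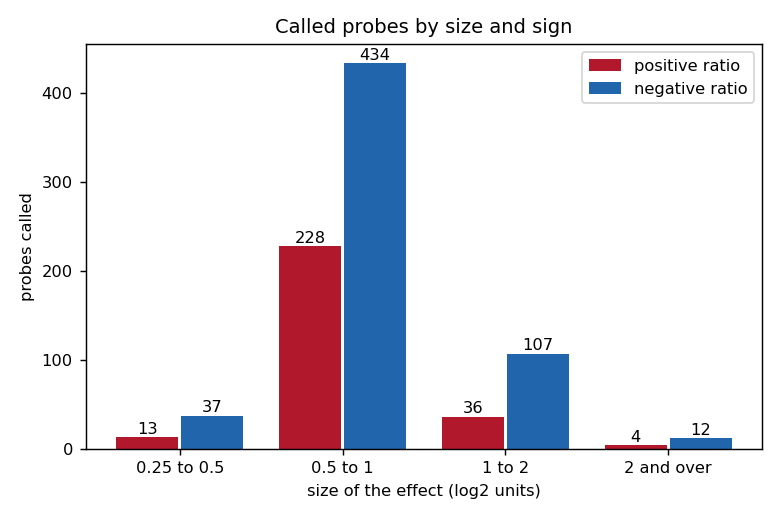
Number of probes called with a positive (red) and a negative (blue) ratio, by the size of the effect in log2 units. Negative calls outnumber positive ones in every class, from 434 against 228 between 0.5 and 1 log2 unit to 12 against 4 at 2 log2 units and over.

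Most called probes kept 1 sign over the arrays. Of the 871, 814 (93.5%) had 1 sign on every array that measured them, as did 32.8% of all tested probes; since the test favours such probes, the share is a description. The means of the 2 orientations had opposite signs for 24 calls (2.76%), against 44.4% of all tested probes, and the test favours a low share here too. The gap between these means was no smaller for the calls. Its median was 0.39 log2 units for called probes, against 0.33 for all tested probes. Probes with 4 values were called in 727 of 6585 cases (11%), and probes with 3 values in 144 of 3114 (4.62%). The calls came from 39 of the 41 plates of the probe collection. No probe was tested on 1 plate, and the share of tested probes called had a median of 8.99% over plates, with 0 at the lowest and 13.2% at the highest. More negative than positive calls came from 38 plates and more positive ones from none, while 1 plate gave equal numbers.

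Among the probes with 1 sign on all 4 arrays, DAC034F02 had the largest positive ratio. Its values were 3.96, 5.52, 4.66 and 4.47 on replicates 5, 6, 7 and 8. The effect was 4.65 ± 0.228 (SE, n = 4 arrays), a 25.2-fold difference (limma adjusted p = 0.000185), and even its lowest array exceeded the effect of every other positive call. DAC012O21 followed with 2.49, 2.55, 1.87 and 1.68, an effect of 2.15 ± 0.119 (SE, n = 4, 4.43-fold, limma adjusted p = 0.000313). Both values with the mutant in Cy5 lay above both with it in Cy3, but none came near 0. DAC032F19 was the most even of the positive probes, with 1.60, 1.56, 1.66 and 1.52 and an effect of 1.58 ± 0.118 (SE, n = 4, 3-fold, limma adjusted p = 0.00168). DAC016N07 had 1.29, 1.88, 1.41 and 1.91, for an effect of 1.62 ± 0.152 (SE, n = 4, limma adjusted p = 0.00246). These 4 probes kept their call without any 1 of the arrays.

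The other 8 of the 12 largest positive probes were positive on every array too, but their calls ended without replicate 5. DAC040I03 had 1.88, 2.38, 1.08 and 2.52 on replicates 5 to 8 (effect 1.96 ± 0.224, SE, n = 4). DAC015B22 had 2.47, 1.54, 1.23 and 2.34 (effect 1.90 ± 0.216, SE, n = 4). In both, the lowest value came from replicate 7. DAC033F17, at 0.82, 0.81, 1.62 and 2.22, and DAC018D21, at 1.08, 0.71, 1.77 and 1.84, were smaller with the mutant in Cy5 than with it in Cy3 on every array. Their effects were 1.37 ± 0.138 and 1.35 ± 0.125 (SE, n = 4 each). DAC027H13 ran evenly at 1.48, 1.10, 1.24 and 1.33 (effect 1.28 ± 0.126, SE, n = 4). The remaining 3 were uneven. DAC033L10 had 1.31, 0.36, 2.60 and 0.96 (effect 1.31 ± 0.265, SE, n = 4), and this call also ended with no dye component (limma adjusted p = 0.0661). DAC034B02 had 0.87, 1.70, 1.67 and 0.75 (effect 1.25 ± 0.193, SE, n = 4). DAC034N10 had 0.99, 1.00, 0.72 and 2.20 (effect 1.23 ± 0.219, SE, n = 4), so replicate 8 alone passed 2-fold by a clear margin. Without replicate 5 the limma adjusted p of these 8 probes lay between 0.0537 (DAC018D21) and 0.171 (DAC033L10).

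**Figure D3:**
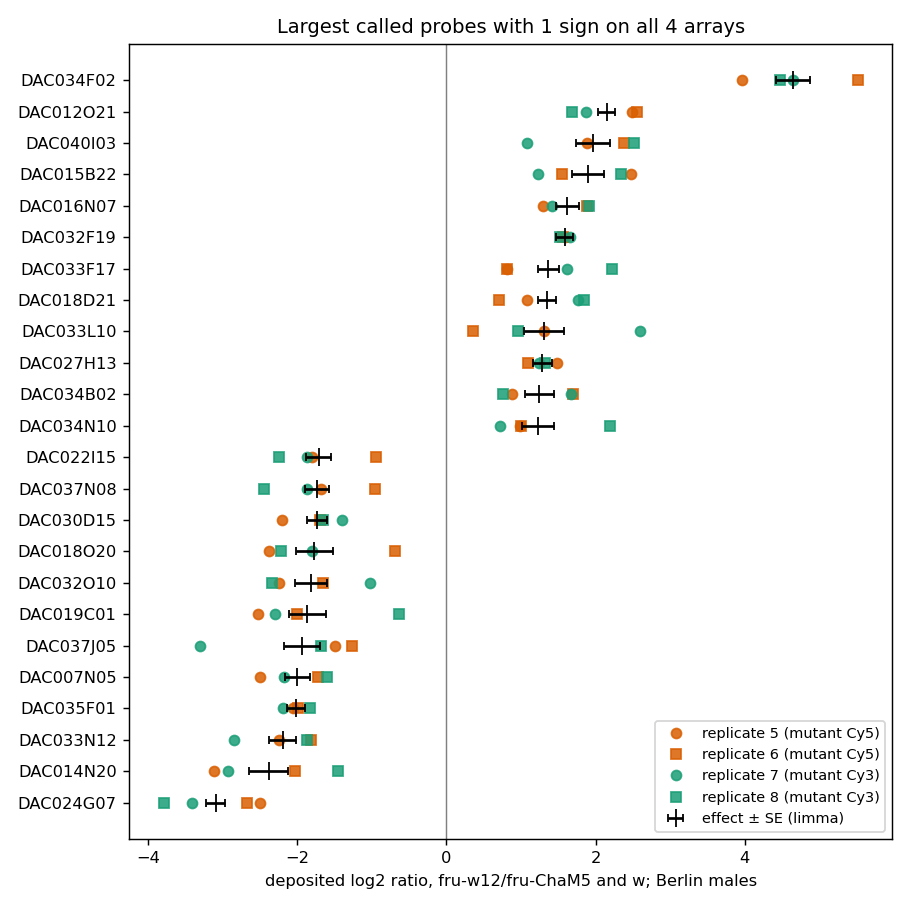
Deposited log2 ratios of the 12 largest positive and 12 largest negative called probes with 1 sign on all 4 arrays, 1 row per probe. Orange symbols are the arrays with the mutant in Cy5, green symbols those with it in Cy3, and black crosses give the effect ± SE; DAC034F02 stands apart at 4.65, and no symbol crosses the line at 0.

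The largest negative ratio among probes with 4 values belonged to DAC024G07. Its values were -2.50, -2.67, -3.41 and -3.79 on replicates 5 to 8. The effect was -3.09 ± 0.127 (SE, n = 4), an 8.53-fold difference with the smallest p of all probes (limma adjusted p = 9.45e-05). The values with the mutant in Cy3 were the more negative ones, and all 4 passed 4-fold. DAC035F01 was more even, at -2.06, -1.99, -2.19 and -1.83, with an effect of -2.02 ± 0.125 (SE, n = 4, 4.05-fold, limma adjusted p = 0.000568). DAC007N05 had -2.50, -1.72, -2.18 and -1.61, for an effect of -2.002 ± 0.168 (SE, n = 4, 4.01-fold, limma adjusted p = 0.00206). Each of the last 2 probes passed 2-fold on every array. DAC030D15 had -2.21, -1.70, -1.40 and -1.66 (effect -1.74 ± 0.136, SE, n = 4, limma adjusted p = 0.00173). DAC022I15 had -1.81, -0.94, -1.87 and -2.25 (effect -1.72 ± 0.166, SE, n = 4, limma adjusted p = 0.00256), its smallest value being that of replicate 6. These 5 negative probes kept their call without any 1 of the arrays.

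For the other 7 of the 12 largest negative probes the call ended without replicate 5, with a limma adjusted p between 0.0536 (DAC033N12) and 0.0978 (DAC019C01). DAC014N20 had -3.12, -2.04, -2.93 and -1.45 on replicates 5 to 8 (effect -2.38 ± 0.258, SE, n = 4). DAC033N12 had -2.25, -1.82, -2.85 and -1.87 (effect -2.20 ± 0.177, SE, n = 4). Both passed 2-fold on each array. DAC037J05 owed much of its size to replicate 7, with -1.50, -1.26, -3.31 and -1.68 (effect -1.94 ± 0.236, SE, n = 4). DAC019C01 had -2.53, -2.01, -2.30 and -0.64 (effect -1.87 ± 0.248, SE, n = 4), so replicate 8 stood nearest to 0. DAC032O10 had -2.25, -1.66, -1.03 and -2.34 (effect -1.82 ± 0.215, SE, n = 4). In DAC018O20, at -2.38, -0.70, -1.80 and -2.22, replicate 6 was the weakest (effect -1.78 ± 0.247, SE, n = 4). The same array was the weakest in DAC037N08, at -1.68, -0.96, -1.88 and -2.44 (effect -1.74 ± 0.163, SE, n = 4).

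Some probes measured on only 3 arrays had larger ratios still, with less to hold them. In such a probe the array that is alone in its dye orientation is fitted exactly, so the standard error holds nothing of it. DAC030D08 had -3.42 on replicate 6, -4.74 on replicate 7 and -1.46 on replicate 8 (effect -3.26 ± 0.561, SE, n = 3, limma adjusted p = 0.0197). DAC039C15 had -5.33, -3.23 and -2.09 on replicates 5, 6 and 7 (effect -3.18 ± 0.377, SE, n = 3, limma adjusted p = 0.00829). The arrays of either probe lay more than 2 log2 units apart. On the positive side DAC026E20 had 3.66, 0.54 and 2.12 on replicates 6, 7 and 8 (effect 2.49 ± 0.301, SE, n = 3). DAC012P03 had 1.26, 0.94 and 3.25 on replicates 5, 6 and 7 (effect 2.17 ± 0.161, SE, n = 3), where the lone Cy3 array sets the size. With no dye component DAC026E20 and DAC012P03 were no longer called (limma adjusted p = 0.0721 and 0.0661). Without replicate 5, on which DAC026E20 and DAC030D08 had no value, neither passed (limma adjusted p = 0.0688 and 0.0958).

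Each array in turn was set against calls made without it. Without replicate 5 the other 3 arrays called 21 probes, of which 17 had a value on replicate 5, and all 17 had the same sign there (100%, exact binomial 95% interval 80.5 to 100%). Replicate 6 gave the same sign for 81 of 83 probes (97.6%, interval 91.6 to 99.7%). Both arrays had the mutant in Cy5, and far fewer probes were called without them than without the arrays of the other orientation. Replicate 7 gave the same sign for 560 of 603 probes (92.9%, interval 90.5 to 94.8%), and replicate 8 for 758 of 888 (85.4%, interval 82.9 to 87.6%). Over all probes, called or not, the sign was the same for 66.8, 69.6, 69.1 and 65.7% on replicates 5 to 8. Probes of 1 array are not independent, so the intervals cover counting error only. Sizes were nearly the same on replicates 5 and 7 and smaller on replicates 6 and 8. The median value on the array left out, turned by the sign of the call, was 1.56 log2 units on replicate 5, 0.95 on replicate 6, 0.72 on replicate 7 and 0.49 on replicate 8. The same probes had median sizes of 1.58, 1.38, 0.70 and 0.71 on the arrays that made the calls.

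**Figure D4:**
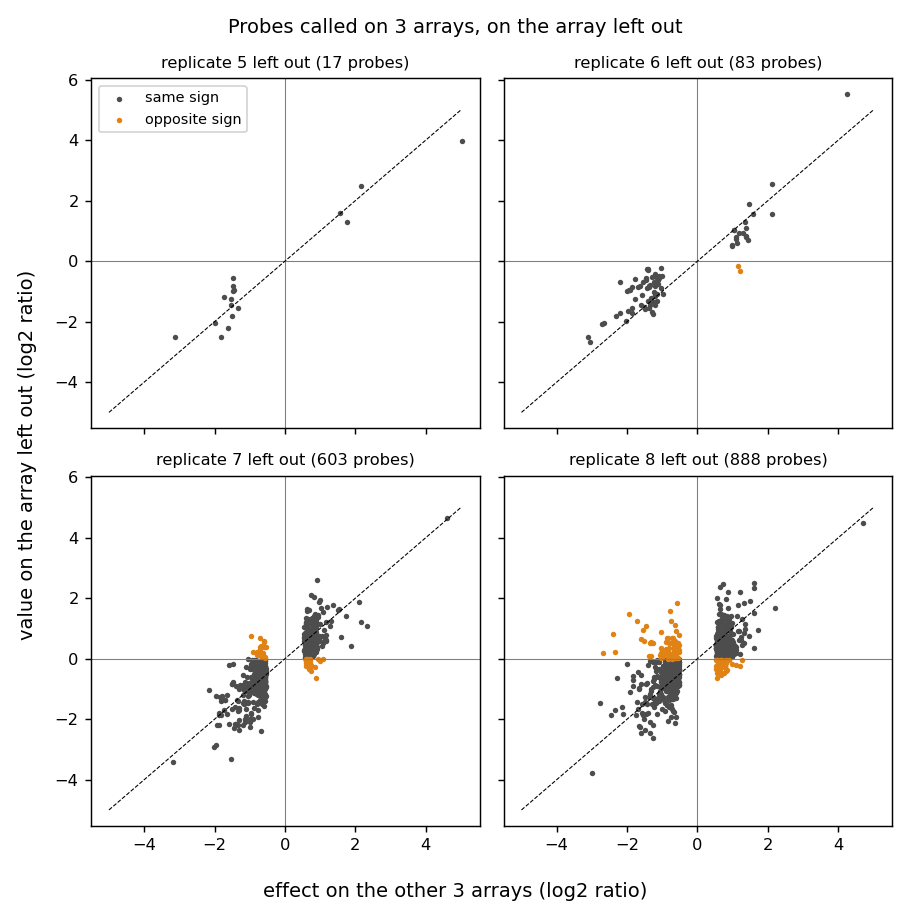
Log2 ratio on the array left out (vertical axis) against the effect on the other 3 arrays (horizontal axis) for the probes called without that array, 1 panel per array. Grey points have the same sign on both axes, orange points the opposite sign, and the dashed line marks equal values; orange points number none of 17, 2 of 83, 43 of 603 and 130 of 888 on replicates 5 to 8.

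The dye component, the full gap between the orientation means, had an SD of 0.536 log2 units over probes. Divided by 2, which gives the distance of either orientation mean from the effect, its SD was 0.268, against 0.369 for the effect. The test of the dye component itself called 2 probes and gave 1744 an unadjusted p under 0.05. It correlated across 6204 probes with that of the fru-440/fru-P14 arrays (Pearson's r = 0.625 with both sets of ratios as deposited), and turning the ratios of 1 set would change the sign of that correlation. Differences between the allele pairs below take both sets in their deposited sense.

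The fru-440/fru-P14 males show how far the ratios recur with other alleles. They were compared with Canton S males, so allele pair and control strain differ together and cannot be told apart. Of 6204 probes tested in both pairs, 1494 (24.1%) had unlike effects, 553 of them higher and 941 lower in fru-w12/fru-ChaM5 (limma, 8 arrays, 1 dye component shared by both pairs). Among the 680 probes called in fru-w12/fru-ChaM5 that were tested for this, the difference passed for 550 (80.9%). These probes were called for their effect on the same fru-w12/fru-ChaM5 arrays, so a difference was favoured by the choice and the share is a description. On its own 4 arrays fru-440/fru-P14 had 725 of 6394 probes called (11.3%), 358 positive and 367 negative.

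The largest difference was that of DAC034F02, which had 3.96 to 5.52 on the 4 fru-w12/fru-ChaM5 arrays, against -0.58, -0.37, -1.26 and -0.70 on the 4 fru-440/fru-P14 arrays. The groups did not overlap, and the difference was 5.38 ± 0.287 log2 units (SE, limma adjusted p = 2.69e-06). Among probes with a higher ratio in fru-w12/fru-ChaM5, DAC012O21 was next, with 1.68 to 2.55, against -0.66, -0.98, -1.52 and -1.70 (difference 3.36 ± 0.131, SE, limma adjusted p = 4.68e-07). DAC040I03 had 1.08 to 2.52, against -1.43, -0.82 and -0.32 on the 3 fru-440/fru-P14 arrays that measured it (difference 2.85 ± 0.366, SE, limma adjusted p = 0.00097). In all 3 probes the deposited signs of the pairs were opposite on every array.

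The largest differences on the lower side came from probes with strong positive ratios in fru-440/fru-P14. DAC037E21 had -0.51, -1.47 and -1.66 on replicates 6, 7 and 8 of fru-w12/fru-ChaM5, against 2.35, 3.86, 3.15 and 2.98 in fru-440/fru-P14 (difference -4.22 ± 0.341, SE, limma adjusted p = 0.000146). Its call in fru-w12/fru-ChaM5 alone ended with no dye component (limma adjusted p = 0.0557). DAC032I05 had -0.53, -0.81, -0.63 and -0.88, against 3.63, 3.67, 2.48 and 2.60 (difference -3.81 ± 0.205, SE, limma adjusted p = 2.69e-06). Here the fru-w12/fru-ChaM5 effect was only -0.71 ± 0.125 (SE, n = 4, limma adjusted p = 0.0172), and its call ended without replicate 5 or 6 (limma adjusted p = 0.0958 and 0.0815). DAC004B03 had -0.998, -1.33, -1.71 and -1.48, against 2.71, 2.53, 1.27 and 1.56 (difference -3.40 ± 0.184, SE, limma adjusted p = 2.69e-06). For DAC004B03 both pairs were called on their own arrays.

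The other large fru-w12/fru-ChaM5 probes varied in fru-440/fru-P14. DAC033N12 had an effect of -2.20 in fru-w12/fru-ChaM5, against 0.43 in fru-440/fru-P14, and DAC032F19 had 1.58, against -0.49, so both were called there with the opposite sign (limma adjusted p = 0.0422 and 0.0388). DAC024G07 had -2.50 to -3.79, against 0.21, 0.30, -0.64 and -0.21 in fru-440/fru-P14, where its effect of -0.09 ± 0.0993 (SE, n = 4) was not called (limma adjusted p = 0.615). DAC035F01 was negative on all 8 arrays, with -1.83 to -2.19, against -1.14, -0.54, -0.60 and -0.70. Its fru-440/fru-P14 effect of -0.75 ± 0.114 (SE, n = 4, limma adjusted p = 0.00684) was called, and the pairs still differed (difference -1.27 ± 0.161, SE, limma adjusted p = 0.000719). DAC007N05 and DAC037N08 were likewise negative on all 8 arrays, with fru-440/fru-P14 effects of -0.52 and -0.47 (limma adjusted p = 0.0291 and 0.0208).

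The smaller and the larger negative calls behaved unlike in fru-440/fru-P14. Of the 404 negative calls within 2-fold that were tested there, 334 (82.7%) had a positive fru-440/fru-P14 effect, with a median of 0.21 log2 units; 91 were called positive and 26 negative. Of the 85 negative calls beyond 2-fold, 27 (31.8%) had a positive effect there, with a median of -0.31, and 8 were called positive and 28 negative. Most positive calls had a negative fru-440/fru-P14 effect in both classes, and a positive one was found for 65 of 167 within 2-fold and 7 of 24 beyond it. Among all 6204 probes tested in both pairs 50.5% had a positive fru-440/fru-P14 effect, the median was 0.00, and 688 (11.1%) were called there, 350 positive and 338 negative. Over the same 6204 probes, called or not, the deposited effects of both pairs ran weakly opposite (Pearson's r = -0.107, Spearman's rho = -0.243). A tendency to opposite signs is thus also seen over the probe set as a whole. The split by size was made after the values had been seen, and no test of it was made. Without replicate 5 no negative call within 2-fold was left to count in fru-440/fru-P14, and without replicate 6 there was 1.

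**Figure D5:**
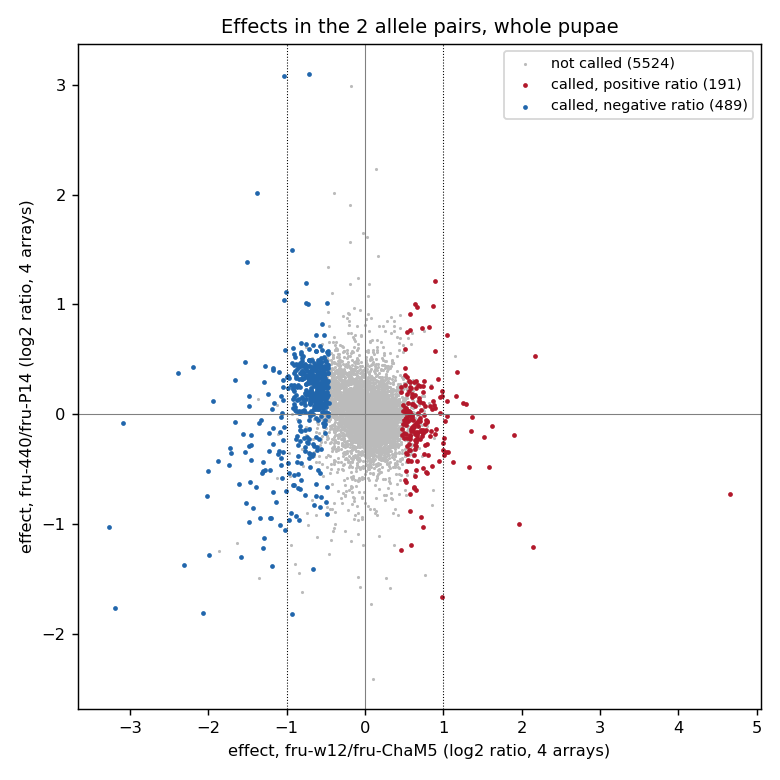
Effect in fru-440/fru-P14 (vertical axis) against the effect in fru-w12/fru-ChaM5 (horizontal axis), both in log2 units, for the 6204 probes tested in both pairs; red and blue points are called with a positive and a negative ratio in fru-w12/fru-ChaM5, and dotted lines mark 2-fold. Blue points between -1 and 0 lie mostly above the horizontal line at 0, whereas those beyond -1 lie mostly below it, and DAC034F02 stands alone at the right.

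The CNS of the same genotypes was measured on 3 arrays, all with the mutant in Cy5, so dye and genotype cannot be told apart there. CNS RNA was also amplified before labelling per the labels' protocols, and no label relates the sign of a CNS ratio to that of a whole-body ratio. Of 7823 probes with a value on all 3 CNS arrays 731 were called (9.34%). With the dye component taken from the female and male CNS arrays 10 of 6522 probes were called and 797 had an unadjusted p under 0.05 (limma). Estimating that dye component also adds to the standard errors, and how much this lowered the count was not tested. The CNS mean correlated with that dye component at Pearson's r = 0.567 (n = 6522 probes). The whole-body effect and the CNS mean were nearly unrelated over 6295 probes (Pearson's r = 0.0135, Spearman's rho = -0.0176).

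Probes called in both tissues numbered 46, which is 9.98% of the 461 whole-body calls with 3 CNS values and 8.24% of the 558 CNS calls tested in the whole body. These shares are near those of all tested probes, of which 8.86% of the 6295 with 3 CNS values were called in the CNS and 8.98% were called in the whole body. Among the 93 whole-body calls beyond 2-fold with 3 CNS values the share called in the CNS was higher, at 16 probes (17.2%). The deposited signs of the 46 probes were the same for 28 and opposite for 18. With the dye component from the female and male arrays none of the 342 whole-body calls tested was called in the CNS, where 10 of all 5394 whole-body probes in that fit were called. DAC034F02, which led the whole-body list, had 3.96 to 5.52 in the whole body, against 1.02, 0.82 and 1.60 in the CNS (CNS mean 1.15 ± 0.17, SE, n = 3, limma adjusted p = 0.0169). DAC024G07 had -2.50 to -3.79 in the whole body, against -0.47, -1.09 and -0.71 in the CNS (mean -0.76 ± 0.148, SE, n = 3, limma adjusted p = 0.0321). Both were larger in the whole body on every array, by the deposited size. After the dye component was taken out, the CNS effects of DAC034F02 and DAC024G07 were 0.96 ± 0.233 and -0.97 ± 0.194 (SE) and neither was called (limma adjusted p = 0.18 and 0.125).

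The other 3 probes with the largest sizes in both tissues differed in how the tissues compared. DAC027K08 had -2.18, -3.65 and -0.81 on replicates 6, 7 and 8 of the whole body, against -0.80, -1.73 and -1.36 in the CNS, so the tissues overlapped. Its whole-body effect of -2.21 ± 0.491 (SE, n = 3, limma adjusted p = 0.039) was no longer called with no dye component (limma adjusted p = 0.0568). DAC037N08 had -0.96 to -2.44 in the whole body, against 0.45, 1.16 and 1.10 in the CNS, opposite in deposited sign. DAC040B22 was positive on all arrays of both tissues, with 0.78, 0.83, 1.89 and 1.14 in the whole body, against 2.17, 1.19 and 0.97 in the CNS. Its whole-body effect was 1.16 ± 0.149 (SE, n = 4, limma adjusted p = 0.00771), and its CNS mean was 1.44 ± 0.233 (SE, n = 3, limma adjusted p = 0.0204). The whole-body calls of DAC027K08 and DAC040B22 ended without replicate 5 (limma adjusted p = 0.124 and 0.0923).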

How the data were processed

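The deposited values were normalized log2 ratios, 1 per probe and array, that the authors made with limma per the submitters' processing notes; the version, background correction and normalization they used were not given in the sources used here. Per the labels' protocols, whole-body cDNA was labelled directly during reverse transcription. From these values a moderated linear model (lmFit, then eBayes; limma 3.58.1, R 4.3.3; two-sided p adjusted by Benjamini-Hochberg over all probes tested, threshold 0.05) fitted 1 effect and 1 dye component to probes with at least 3 of 4 values. CNS arrays were fitted with 1 mean and needed 3 values. No value was imputed. The authors deposited 3 arrays of another experiment as values of unknown scale, treated as a score and not used. Probes are named by a rule: the 12 largest calls on each side with 4 values of 1 sign, the 2 largest on each side with 3, the 3 largest differences between allele pairs on each side, and the 5 largest called in both tissues. The comparisons, probes and rules were chosen with earlier results of these data known. The fitting code was tested on simulated data; the share of false calls varied with the assumed spread between arrays and exceeded the nominal one under some assumptions, so the counts of calls are approximate.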

Additional observations from a re-analysis of the deposited data

Results flagged for a closer look

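None of the 27 named probes with 4 values had an array that stood apart from the other 3 by Dixon's test (limit for 4 samples, 95% level). That limit is hard to reach with so few values from 2 dye orientations, so 1 array can still set much of a probe's size. The difference between the allele pairs passed for 24 of the 25 named probes tested for it, 12 higher and 12 lower in fru-w12/fru-ChaM5 than in fru-440/fru-P14. Since most of these probes were named for their size in fru-w12/fru-ChaM5, a large difference was favoured by the choice. On the higher side the differences in log2 units (limma, adjusted p between 4.68e-07 and 0.00632) were 5.38 for DAC034F02, 3.36 for DAC012O21, 2.85 for DAC040I03, 2.09 for DAC015B22, 2.06 for DAC032F19, 1.74 for DAC016N07, 1.64 for DAC012P03, 1.5 for DAC018D21, 1.39 for DAC033F17, 1.17 for DAC027H13, 1.15 for DAC034B02 and 1.00 for DAC040B22. On the lower side (limma adjusted p between 2.69e-06 and 0.0369) they were -4.22 for DAC037E21, -3.81 for DAC032I05, -3.40 for DAC004B03, -3.01 for DAC024G07, -2.76 for DAC014N20, -2.63 for DAC033N12, -2.27 for DAC030D08, -2.05 for DAC037J05, -1.48 for DAC007N05, -1.41 for DAC022I15, -1.27 for DAC035F01 and -1.27 for DAC037N08. The difference of DAC014N20 had an SE of 0.839, and its fru-440/fru-P14 values were 2.27, -0.058, 1.70 and -2.42. The last of these lay within its fru-w12/fru-ChaM5 range of -3.12 to -1.45. DAC039C15 was tested too, with a difference of -1.50 ± 1.5 (SE) and a limma adjusted p of 0.501.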

How the results depend on the processing

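Signal over background is unknown, and 4 arrays limit the precision. Against 871 calls, the count was 224 with no dye component, 219 with neither that nor a filter on missing values, 1593 of 6204 with all 8 whole-body arrays in 1 fit, and 38 against a 1.5-fold limit (treat). The count was 2 with the ratios read as Cy5 over Cy3, where the value tested is the dye component divided by 2. With 1 array left out it ran between 21 (without replicate 5) and 975 (without replicate 8). Centring, scaling, robust moderation and probes with 4 values gave 843, 1131, 877 and 939. Fits without replicate 5, 6, 7 or 8 tested 797, 745, 734 and 776 of the 871 calls and kept 21, 84, 494 and 655.

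The dye component had 2 calls, 0 with 4 values, 0 after centring, and between 0 and 83 with 1 array left out. The difference between allele pairs passed for 1494 probes, 851 with no dye component, 0 with Cy5 over Cy3, and between 884 (without replicate 1) and 1312 with 1 array left out; without replicate 4 it was 969. In the CNS 731 calls of 7823 probes became 10 of 6522 with the dye component of the female and male arrays, which also adds to the standard errors. With 1 CNS array left out the calls ran between 0 (without replicate 2 or 3) and 2743 (without replicate 1). The same sign on the array left out, for probes with an unadjusted p under 0.05, was found for 84.6, 85.8, 86.4 and 80.5% on replicates 5 to 8.

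Of the 33 named probes, 21 lost the call without replicate 5, 8 without replicate 6 and none without replicate 7 or 8. With the ratios read as Cy5 over Cy3, a reading opposed by the sign of the strongest probes, no named probe was called, and the sign turned for 18: DAC016N07 (-0.0377), DAC032F19 (-0.00569), DAC033F17 (-0.55), DAC018D21 (-0.46), DAC033L10 (-0.47), DAC034N10 (-0.23), DAC024G07 (0.51), DAC033N12 (0.16), DAC037J05 (0.56), DAC018O20 (0.24), DAC037N08 (0.42), DAC022I15 (0.34), DAC012P03 (-1.07), DAC037E21 (0.53), DAC032I05 (0.0400), DAC004B03 (0.22), DAC027K08 (0.0273) and DAC040B22 (-0.35).

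The share of negative calls with a positive fru-440/fru-P14 effect was recomputed under settings chosen after seeing the data. Within 2-fold it was 85.1% with no dye component, 85.6% with 4 values in both pairs, and between 78.8 and 83.8% with 1 array left out, except without replicate 5 (no probe) and replicate 6 (1 probe, 100%). Beyond 2-fold these were 33.3%, 34.6%, and between 26.4 and 38.7%. The cause of the moved counts was not tested. No paired analysis was possible because each array holds both samples compared, so the pairing lies within the array, and the replicate numbers of other groups name other experiments.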
